A study of Mus musculus with 8 samples.

Results

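The genes described here encode the enzymes of the lysosome lumen, the proteins of its membrane, their accessory proteins and the transcription factor Tfeb. A list of 37 mouse gene symbols was matched to the table of read counts per gene, and all 37 were found among its 16160 genes. By role they were 9 proteases (*Ctsa*, *Ctsb*, *Ctsd*, *Ctsh*, *Ctsl*, *Ctss*, *Ctsz*, *Lgmn*, *Tpp1*), 12 glycosidases and related enzymes (*Hexa*, *Gla*, *Gaa*, *Gusb*, *Galc*, *Glb1*, *Man2b1*, *Manba*, *Naglu*, *Neu1*, *Idua*, *Fuca1*), 3 sulfatases (*Arsa*, *Arsb*, *Ids*) and 3 lipid or thioester hydrolases (*Asah1*, *Smpd1*, *Ppt1*). The other members were *Psap*, *Grn* and *Ifi30*, the 6 membrane protein genes *Lamp1*, *Lamp2*, *Cd68*, *Scarb2*, *Cln3* and *Mcoln1*, and *Tfeb*. RNA was sequenced from monocytic cells of mouse bone marrow (BM), gated as CD11c-CD11b+Ly6G-SiglecF-Ly6Chi and sorted by CD115, the receptor for the growth factor M-CSF, which is encoded by *Csf1r*. The 4 groups were tCD115- and tCD115+ cells of tumor-bearing (TB) mice, taken on day 21 after inoculation with the EL4 lymphoma line, and nCD115- and nCD115+ cells of tumor-free (naive) mice. All mice were wild type C57BL/6, no group carried a transgene or received a drug, and each group had 2 libraries, described by the study as biological replicates. No source says whether a library came from 1 mouse or from a pool, and every p-value measures the spread between these libraries.

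Lysosomes are acidic organelles that break down proteins, glycans, lipids and nucleic acids delivered by endocytosis, phagocytosis and autophagy. Most of the enzymes are made in the endoplasmic reticulum, tagged with mannose 6-phosphate and carried to the lysosome by sorting receptors, and monocytes and macrophages are rich in them. TFEB and its relatives MITF, TFE3 and TFEC bind E-box sequences in the promoters of many lysosomal genes and raise their transcription.

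The promoters of the members were scanned for the E-box letters described for TFEB. RefSeq promoter windows of build GRCm38.p6, which hold 250 bases before and 50 bases after a transcription start, were matched for 34 of the 37 genes; *Ctsb*, *Ctsh* and *Asah1* had no entry. The E-box core CACGTG was in a window of 13 of the 34 genes (38.2%), against 8.09% of the 27025 genes with windows. The longer form TCACGTGA was in 6 of 34 (17.6%, against 1.12% of all genes), and the 10-base palindrome known as the CLEAR motif, which extends the same core, was in 1 of 34 (*Cln3*, 2.94%, against 0.37%). The 3 motifs are nested and each is its own reverse complement, so one scan covers both strands. The windows printed are those of *Lamp1*, which holds 4 copies of the core (chr8:13158911-13159210, plus strand), of *Ifi30* and *Lgmn*, which were lower in tCD115- than in tCD115+ cells and hold 1 each (chr8:70766614-70766913 and chr12:102439043-102439342, both minus strand), and of *Neu1* and *Arsb*, which were higher there and hold none (chr17:34931003-34931302 and chr13:93771429-93771728, both plus strand). *Lgmn* is among 5 members with more than 1 window, and the one shown is that with the core. The windows shown were picked after the results were known, and no member that fell without the core is among them. Between tCD115- and tCD115+ cells, 10 of the 13 matched members with the core fell, and 14 of the 21 without it, as given below. Each runs 5′ to 3′ on the strand of its gene, and capitals mark CACGTG.
Lamp1: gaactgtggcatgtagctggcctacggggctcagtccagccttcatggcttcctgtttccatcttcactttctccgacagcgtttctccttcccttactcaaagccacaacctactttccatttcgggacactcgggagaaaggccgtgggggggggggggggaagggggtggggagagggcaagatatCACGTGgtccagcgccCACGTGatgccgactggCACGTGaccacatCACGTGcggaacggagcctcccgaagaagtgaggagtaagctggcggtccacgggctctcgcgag
Ifi30: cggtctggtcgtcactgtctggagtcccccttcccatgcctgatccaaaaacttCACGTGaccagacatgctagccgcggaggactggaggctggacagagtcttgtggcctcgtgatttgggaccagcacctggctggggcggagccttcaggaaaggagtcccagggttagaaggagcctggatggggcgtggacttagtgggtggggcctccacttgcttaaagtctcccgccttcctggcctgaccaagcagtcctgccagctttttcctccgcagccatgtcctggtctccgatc
Lgmn: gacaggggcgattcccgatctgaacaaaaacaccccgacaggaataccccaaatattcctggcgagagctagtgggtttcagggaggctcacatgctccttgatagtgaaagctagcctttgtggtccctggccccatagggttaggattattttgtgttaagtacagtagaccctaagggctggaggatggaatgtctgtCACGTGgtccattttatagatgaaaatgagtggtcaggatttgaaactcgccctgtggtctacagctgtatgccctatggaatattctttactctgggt
Neu1: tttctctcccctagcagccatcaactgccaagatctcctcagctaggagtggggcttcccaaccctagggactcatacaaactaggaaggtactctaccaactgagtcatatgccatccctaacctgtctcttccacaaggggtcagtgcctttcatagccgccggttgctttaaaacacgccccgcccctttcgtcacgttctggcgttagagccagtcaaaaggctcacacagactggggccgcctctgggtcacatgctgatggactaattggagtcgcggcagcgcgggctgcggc
Arsb: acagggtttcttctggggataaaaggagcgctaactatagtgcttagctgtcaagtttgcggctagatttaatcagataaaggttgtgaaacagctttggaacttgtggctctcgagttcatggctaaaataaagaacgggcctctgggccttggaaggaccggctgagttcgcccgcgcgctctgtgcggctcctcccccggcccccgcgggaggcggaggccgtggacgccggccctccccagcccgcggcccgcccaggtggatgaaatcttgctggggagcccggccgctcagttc
A match of letters is a description and not a binding site, and the absence of these letters from a window says nothing about TFEB.

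Each library held between 69692398 and 95353798 counts assigned to genes. After a filter on low counts 13211 genes were tested, among them all 37 members, whose fewest reads in any library were 1549. A level is given as CPM, read counts relative to library size, scaled by the trimmed mean of M-values (TMM), and a difference as the log2 fold change of edgeR's quasi-likelihood test with its standard error (SE) and a p-value adjusted by Benjamini-Hochberg over all tested genes. A gene was called when its adjusted p was under 0.05 and its fold change at least 2. *Csf1r*, the gene of the sorting marker, had 283 and 490 CPM in tCD115- cells and 891 and 869 CPM in tCD115+ cells, and 825 and 728 CPM in nCD115- cells against 1159 and 1332 CPM in nCD115+ cells (edgeR adjusted p = 0.00634 in EL4 TB mice and 0.0805 in naive mice). *Itgam*, which encodes CD11b, and *Ly6c2* were above 750 CPM in every library. *Ly6g*, whose product was used to gate granulocytes out, was between 20.3 and 44.3 CPM in the CD115- libraries and at most 0.98 CPM in the CD115+ libraries. In bulk RNA, fewer cells of one type and less RNA per cell cannot be told apart.

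Reads of the lysosomal genes made up a smaller share of the RNA in CD115- cells. They were 1.04% and 1.42% of all counts in tCD115- cells, against 2.15% and 2.17% in tCD115+ cells, and 1.80% and 1.59% in nCD115- cells, against 2.29% and 2.33% in nCD115+ cells. In summed CPM the groups averaged 13019 ± 2307 in tCD115-, 20786 ± 35.7 in tCD115+, 17443 ± 1219 in nCD115- and 22029 ± 673 in nCD115+ cells (SD, n = 2 each). The CD115- libraries lay below the CD115+ libraries in both kinds of mice, with no overlap. *Psap*, which encodes prosaposin, the precursor of the saposins that help enzymes reach sphingolipids, supplied between 30.8% and 44.5% of these reads in each library. Without *Psap* the sums were 7877 and 9238 CPM in tCD115- cells, against 12256 and 12034 CPM in tCD115+ cells, and 10832 and 9905 CPM in nCD115- cells, against 11964 and 12577 CPM in nCD115+ cells, so the groups still did not overlap.

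Markers of neutrophils, monocytes and T and NK cells also differed between the subsets. The summed level of 12 neutrophil markers was 111840 and 69045 CPM in tCD115- cells, against 1576 and 1008 CPM in tCD115+ cells, and 48774 and 63545 CPM in nCD115- cells, against 596 and 723 CPM in nCD115+ cells. In both kinds of mice 11 of the 12 were called higher in CD115- cells, against 8.36% of all tested genes in EL4 TB mice and 5.73% in naive mice. The summed level of 12 monocyte markers was 4650 and 6437 CPM in tCD115- cells, against 10239 and 10531 CPM in tCD115+ cells, and 8213 and 7370 CPM in nCD115- cells, against 10558 and 11543 CPM in nCD115+ cells. Of these, 8 were called lower in tCD115- cells, against 3.97% of all tested genes. None was called lower in nCD115- cells (0.484% of all tested genes), where 1 passed the adjusted p at a smaller fold (3.23%). No marker of either list was at 0 in any library. T and NK cell markers were low but also differed, with a sum over 7 genes of 6.32 and 11.8 CPM in tCD115- cells, against 0.34 and 0.30 CPM in tCD115+ cells, and 7.07 and 7.87 CPM in nCD115- cells, against 1.55 and 1.58 CPM in nCD115+ cells. Of the 7, 6 were called higher in tCD115- cells (8.36% of all tested genes) and 4 in nCD115- cells (5.73%). *Cd3d*, *Cd4*, *Cd8a* and *Ncr1* had no read in 1 of the tCD115+ libraries. In each CD115- group the library with more neutrophil marker reads had fewer lysosomal reads, namely replicate 1 of tCD115- and replicate 2 of nCD115-. This order rests on 1 pair of libraries per group and was not tested. In bulk RNA, neutrophil transcripts of the sorted cells and of other cells cannot be told apart. The study itself reports, from the same RNA sequencing, higher neutrophil-related genes such as *Ly6g* and *Camp* in the CD115- subsets of both kinds of mice. It also reports monocyte morphology for CD115- cells and OLFM4 protein in a part of the tCD115- cells. CD135, which it used to check for progenitors, was not found on tCD115- or tCD115+ cells. The part of these marker differences in the lysosomal results was not tested.

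**Figure D1:**
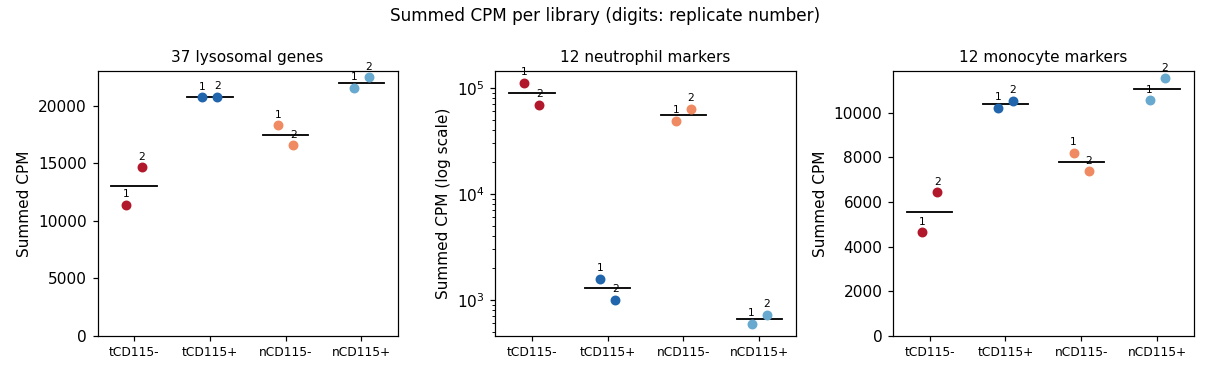
Summed TMM-scaled CPM per library (points, with the replicate number) and group mean (line) of the 37 lysosomal genes, 12 neutrophil markers (log axis) and 12 monocyte markers. The lysosomal sum ran from 11388 to 14650 CPM in tCD115- libraries, against 20761 to 20812 CPM in tCD115+ libraries, and the neutrophil marker sum differed between the subsets in the opposite direction.

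Levels between genes are comparable only per length, so the order within the list was read from the authors' FPKM values (fragments per kilobase of transcript, scaled for depth). *Psap* led with a mean of 2815 FPKM over the 8 libraries, followed by *Ctss* at 762 FPKM, *Ifi30* at 675 FPKM, *Lamp1* at 581 FPKM and *Grn* at 370 FPKM. *Naglu* (10.1 FPKM), *Gla* (8.81 FPKM) and *Idua* (5.74 FPKM), which degrade heparan sulfate, globotriaosylceramide and iduronic acid-containing glycans, were at the low end. tCD115- cells had the lowest group mean CPM for 26 of the 37 genes and the highest for 4, an order that was not counted over all tested genes.

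The comparison of the subsets within EL4 TB mice asks how CD115- and CD115+ cells differ in tumor-bearing mice. Most lysosomal genes were lower in tCD115- than in tCD115+ cells. At an adjusted p under 0.05, 27 of the 37 fell, against a background of 19.9% of all tested genes, and 3 rose (background 17.7%). With the 2-fold threshold added, *Lgmn* and *Ifi30* were called lower (background 3.97%) and *Arsb* and *Neu1* higher (background 8.36%). The median log2 fold change was -0.40 over the 37 genes and -0.05 over all tested genes. In 30 members both tCD115- libraries lay below both tCD115+ libraries (background 40.1%), and in 3 they lay above (31.4%). The 7 that did not pass were *Ctsd*, *Man2b1*, *Idua*, *Smpd1*, *Ppt1*, *Mcoln1* and *Cln3*, with log2 fold changes between -0.24 and 0.05. The count that fell was 14 without tCD115+ replicate 1, 13 without tCD115+ replicate 2 and 12 with these 4 libraries fitted alone, where the share of all tested genes that fell was 7.19%, 7.32% and 7.14%. Scaling by library totals alone gave 1 member called higher and 7 called lower (background 7.65% and 6.36%).

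**Figure D2:**
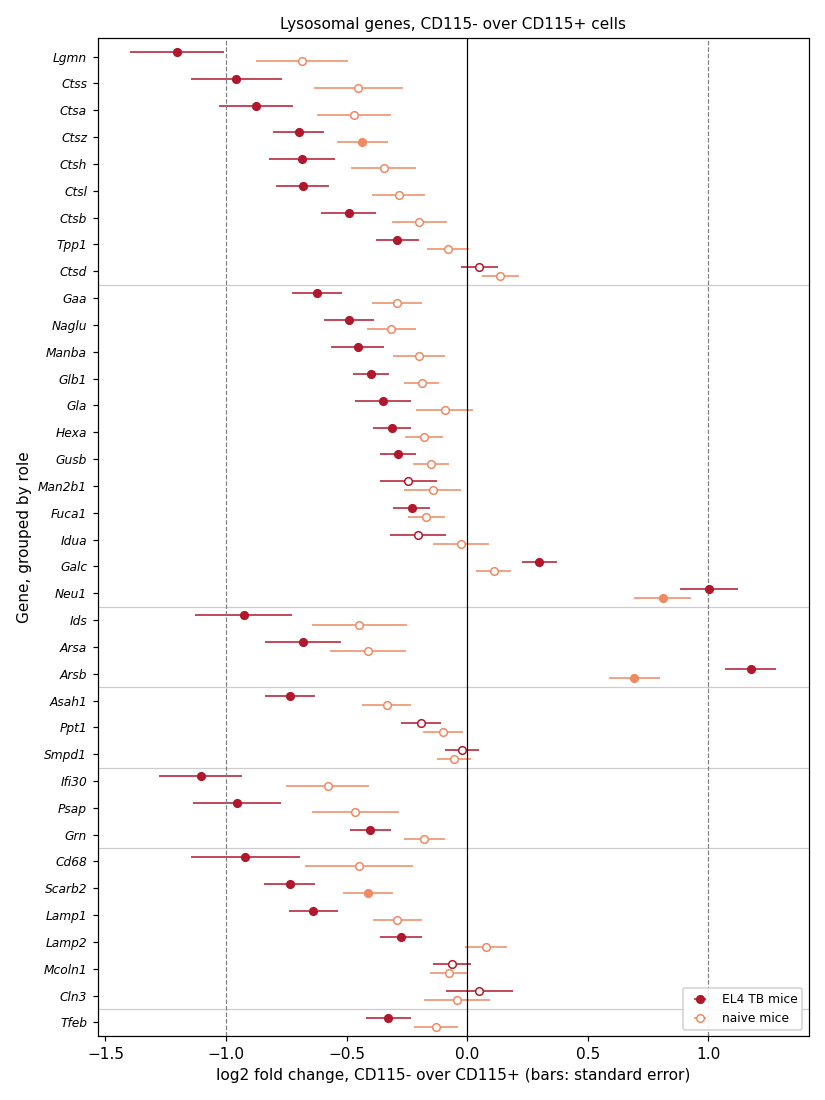
Log2 fold change of CD115- over CD115+ cells for each of the 37 genes, grouped by role (proteases, glycosidases, sulfatases, lipid and thioester enzymes, *Psap*/*Grn*/*Ifi30*, membrane proteins, *Tfeb*), in EL4 TB mice (red) and naive mice (orange). Bars are standard errors, filled points have an adjusted p under 0.05 and dashed lines mark a 2-fold change; *Arsb* and *Neu1* lie to the right in both kinds of mice and *Lgmn* and *Ifi30* to the left.

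Among the proteases 8 of 9 fell, with a median log2 fold change of -0.68. *Lgmn*, which encodes legumain, a cysteine protease that cuts after asparagine and processes cathepsins, had 31.8 and 47.4 CPM in tCD115- cells, against 92.0 and 90.4 CPM in tCD115+ cells. It changed by -1.20 ± 0.19 (log2, SE; edgeR adjusted p = 0.00325), with no overlap. *Ctss*, whose product cathepsin S trims the invariant chain of MHC class II, had 460 and 691 CPM in tCD115- cells, against 1140 and 1094 CPM in tCD115+ cells (-0.96 ± 0.19, edgeR adjusted p = 0.00694). Both tCD115- libraries were well below both tCD115+ libraries, and the lower of them was replicate 1 for both genes. *Ctsa* (-0.88), which protects other lysosomal enzymes, *Ctsz* (-0.70), *Ctsh* (-0.68), *Ctsl* (-0.68), *Ctsb* (-0.49) and *Tpp1* (-0.29), which cover carboxypeptidase, aminopeptidase, endopeptidase and tripeptidyl peptidase activities, also fell. *Ctsd*, which encodes the aspartic protease cathepsin D, was the exception, with 619 and 606 CPM in tCD115- cells, against 621 and 562 CPM in tCD115+ cells (0.05 ± 0.08, edgeR adjusted p = 0.636), and the groups overlapped.

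The 12 glycosidase genes were split, with 8 lower and 2 higher at an adjusted p under 0.05 and a median of -0.30. *Neu1* encodes the lysosomal sialidase that removes terminal sialic acids. It had 186 and 148 CPM in tCD115- cells, against 86.2 and 80.5 CPM in tCD115+ cells, a change of 1.00 ± 0.12 (edgeR adjusted p = 0.000917) that sits at the 2-fold threshold. Its product acts in a complex with those of *Ctsa* and *Glb1*, both of which fell in the same comparison, *Glb1* by 0.40 on the log2 scale. *Galc*, which encodes the galactosylceramidase of myelin lipid breakdown, had 58.0 and 55.3 CPM in tCD115- cells, against 47.8 and 44.3 CPM in tCD115+ cells (0.30 ± 0.07, edgeR adjusted p = 0.0158). The log2 fold changes of the 8 that fell ran from -0.62 for *Gaa*, the glycogen-degrading acid alpha-glucosidase, to -0.23 for *Fuca1*, an alpha-fucosidase. Leaving out tCD115- replicate 1 reduced *Neu1* to 0.84, leaving out tCD115+ replicate 2 reduced it to 0.95, scaling by library totals alone reduced it to 0.85, and each ended the call at 2-fold. *Galc* no longer passed without tCD115+ replicate 1 (0.35, edgeR adjusted p = 0.0541) or without tCD115+ replicate 2 (0.25, edgeR adjusted p = 0.131), or with library totals alone (0.16, edgeR adjusted p = 0.117).

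The sulfatases moved in both directions. *Arsb* encodes arylsulfatase B, which removes sulfate from dermatan and chondroitin sulfate. It had 222 and 191 CPM in tCD115- cells, against 91.3 and 92.0 CPM in tCD115+ cells, and its change of 1.17 ± 0.11 (edgeR adjusted p = 0.000247) was the largest increase among the 37 genes. It stayed called when any of the 8 libraries was left out (1.08 to 1.28). *Arsa*, whose product desulfates sulfatides, fell by 0.68, and *Ids*, which encodes the iduronate sulfatase of heparan and dermatan sulfate breakdown, fell to 19.7 and 31.9 CPM in tCD115- cells, against 48.5 and 49.7 CPM in tCD115+ cells (-0.93 ± 0.20, edgeR adjusted p = 0.0103). Thus *Arsb* and *Ids*, which act on the same glycan, differed in direction. The exons of *Arsb* share 1948 bases with those of *Gm26527*, a noncoding gene on the other strand, and without a stated strand setting their reads cannot be told apart.

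*Psap*, *Grn* and *Ifi30* all fell. *Ifi30*, which encodes GILT, a thiol reductase that opens disulfide bonds of antigens, had 379 and 551 CPM in tCD115- cells, against 988 and 1014 CPM in tCD115+ cells (-1.11 ± 0.17, edgeR adjusted p = 0.00288). *Psap* had 3511 and 5413 CPM in tCD115- cells, against 8505 and 8778 CPM in tCD115+ cells (-0.95 ± 0.18, edgeR adjusted p = 0.00646). Neither gene overlapped between the subsets, and in both, tCD115- replicate 1 was the lowest of the 4 libraries. *Grn*, the gene of progranulin, which travels to lysosomes with prosaposin, fell by less (-0.40 ± 0.09, edgeR adjusted p = 0.0101). Without tCD115- replicate 1, *Lgmn* (-0.93) and *Ifi30* (-0.85) no longer reached a 2-fold change. Without tCD115- replicate 2 they changed by -1.52 and -1.4.

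Of the 6 membrane protein genes 4 fell. *Lamp1*, which encodes a major glycoprotein of the lysosomal membrane, had 897 and 1038 CPM in tCD115- cells, against 1540 and 1470 CPM in tCD115+ cells (-0.64 ± 0.10, edgeR adjusted p = 0.0032). *Cd68*, the macrosialin gene used as a marker of mononuclear phagocytes, had 115 and 202 CPM in tCD115- cells, against 296 and 305 CPM in tCD115+ cells (-0.92 ± 0.23, edgeR adjusted p = 0.0164). The subsets did not overlap for either gene, but *Cd68* no longer passed without tCD115+ replicate 1 (edgeR adjusted p = 0.0674) or tCD115+ replicate 2 (0.077), or with these 4 libraries fitted alone (0.0798). Its size moved with the tCD115- library kept, to -0.56 without tCD115- replicate 1 and -1.38 without tCD115- replicate 2. *Scarb2*, whose product LIMP-2 carries beta-glucocerebrosidase to the lysosome, fell by 0.74, and *Lamp2* fell by 0.27. *Mcoln1* (-0.06), the gene of the calcium channel TRPML1, and *Cln3* (0.05) did not pass. Of the lipid and thioester enzymes *Asah1*, which encodes acid ceramidase, fell by 0.74, while *Ppt1* (-0.19) and *Smpd1* (-0.02), the palmitoyl-protein thioesterase and acid sphingomyelinase genes, did not pass.

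*Tfeb* itself was lower in tCD115- cells by a small margin, with 63.9 and 73.6 CPM in tCD115- cells, against 82.5 and 89.9 CPM in tCD115+ cells (-0.33 ± 0.09, edgeR adjusted p = 0.0272). It passed in 4 of the 8 fits that left out 1 library and failed without tCD115- replicate 1 (0.0985), tCD115+ replicate 1 (0.0663), tCD115+ replicate 2 (0.163) or nCD115- replicate 1 (0.0542). Of the 13 members with the core CACGTG in a promoter window, 10 fell in this comparison, none rose and 3 did not pass. Of the 21 matched members without it, 14 fell, 3 rose and 4 did not pass, so members that fell were found with and without the letters.

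**Figure D3:**
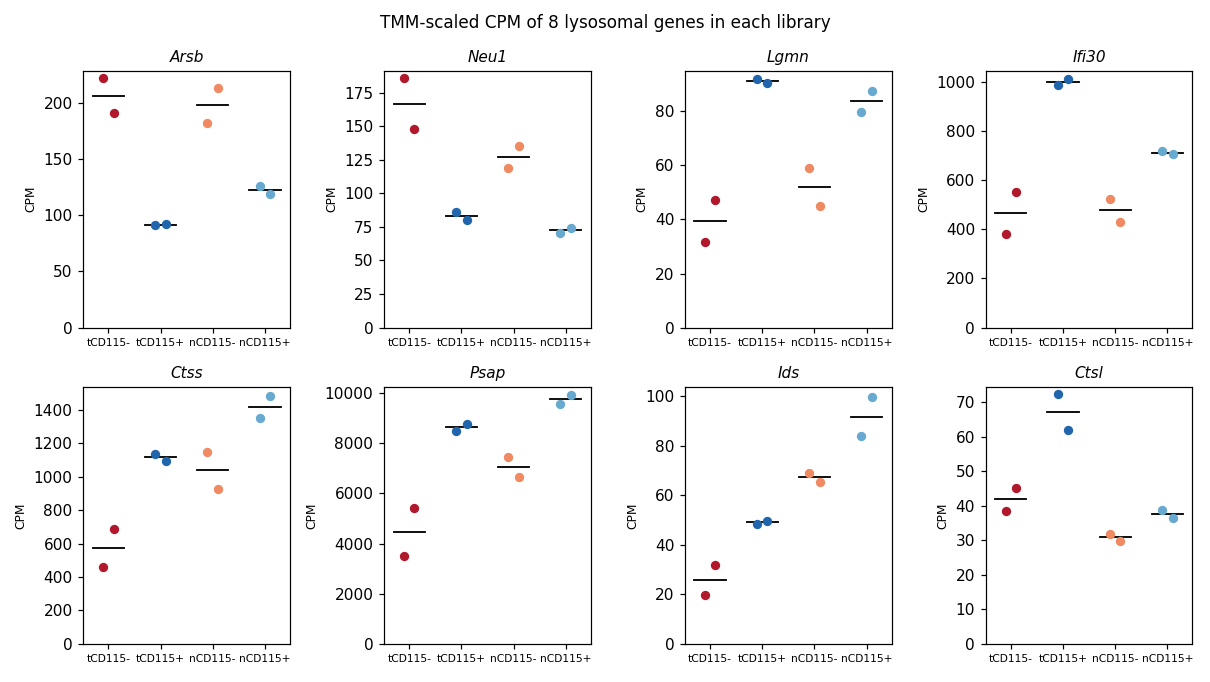
TMM-scaled CPM of 8 of the lysosomal genes in each of the 8 libraries (points) with the group mean (line); each axis starts at 0. *Arsb* and *Neu1* were higher in both CD115- groups, *Lgmn*, *Ifi30*, *Ctss* and *Psap* were lower, *Ids* was lowest in tCD115- libraries (19.7 and 31.9 CPM) and *Ctsl* was highest in tCD115+ libraries (72.2 and 62.0 CPM).

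The comparison of the subsets within naive mice asks whether the same split exists without a tumor. No member was called at the 2-fold threshold (background 5.73% higher and 0.484% lower), by edgeR or by DESeq2. At an adjusted p under 0.05, *Neu1* and *Arsb* rose (background 11.8%) and *Ctsz* and *Scarb2* fell (background 3.23%), and at an unadjusted p under 0.05 the counts were 2 higher (background 19.2%) and 15 lower (background 13.3%), none of them at 2-fold. DESeq2 passed 10 members, 2 higher (background 13.6%) and 8 lower (7.31%), and 8 fell with library totals (background 7.7%). The number that fell was 16 without either tCD115- library, where 13.3% and 13.1% of all tested genes fell, and 0 without any of the other 6, where 0.148% to 1.53% did. The median log2 fold change was -0.19, against -0.01 over all tested genes, and in 27 members both nCD115- libraries lay below both nCD115+ libraries (background 33.4%), with 4 the other way (background 33.4%).

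*Neu1* had 119 and 135 CPM in nCD115- cells, against 70.6 and 74.4 CPM in nCD115+ cells (0.81 ± 0.12, edgeR adjusted p = 0.00382). *Arsb* had 183 and 214 CPM in nCD115- cells, against 126 and 119 CPM in nCD115+ cells (0.69 ± 0.11, edgeR adjusted p = 0.00444). Both passed in all 8 fits that left out 1 library. *Ctsz*, the gene of the carboxypeptidase cathepsin Z, had 365 and 326 CPM in nCD115- cells, against 470 and 464 CPM in nCD115+ cells (-0.44 ± 0.11, edgeR adjusted p = 0.032). *Scarb2* had 167 and 151 CPM in nCD115- cells, against 210 and 212 CPM in nCD115+ cells (-0.41 ± 0.11, edgeR adjusted p = 0.0381). The subsets did not overlap for either gene, yet when 1 library was left out both passed only if it was one of the tCD115- pair. With 1 of the other 6 left out, the edgeR adjusted p reached 0.232 for *Ctsz* and 0.256 for *Scarb2*.

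Members called in EL4 TB mice had smaller changes of the same sign in naive mice. *Lgmn* had 58.9 and 45.0 CPM in nCD115- cells, against 79.8 and 87.6 CPM in nCD115+ cells (-0.69 ± 0.19, edgeR adjusted p = 0.0511), and *Ifi30* had 525 and 428 CPM in nCD115- cells, against 718 and 706 CPM in nCD115+ cells (-0.58 ± 0.17, edgeR adjusted p = 0.0598). By sign alone, 31 members were lower in CD115- cells of both kinds of mice and 4 were higher, and the absolute log2 fold change was larger in EL4 TB mice for 34 of 37. These counts were not made over all tested genes. Of those, 4967 passed the adjusted p by edgeR between the EL4 TB subsets and 1988 between the naive subsets. The difference between the subset effects was tested as an interaction. No member passed an adjusted p under 0.05 there, by edgeR (adjusted p between 0.827 and 0.995) or by DESeq2, and none of the 13211 genes did by edgeR (background 0%), against 89 by DESeq2. At an unadjusted p under 0.05 edgeR gave 5 members, *Arsb* higher (interaction log2 fold change 0.48 ± 0.15) and *Ctsl*, *Asah1*, *Lamp1* and *Lamp2* lower, against 5.68% of all tested genes, and DESeq2 gave 1 higher and 2 lower, against 4.64%. Without tCD115- replicate 2, 1 member passed the adjusted p higher (background 0.888%) and 8 lower (background 3.81%). The larger size in EL4 TB mice was therefore not shown as a difference between the 2 kinds of mice.

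The comparison of tCD115- with nCD115- cells asks what changed in the CD115- cells of tumor hosts. It shares its libraries with the subset comparisons, so the values stand beside those above and are no separate evidence. *Ids* was the only member called (background 2.43% lower and 0.855% higher), by edgeR and by DESeq2, although 5 members were higher and 14 lower at an unadjusted p under 0.05 in both. Of all tested genes, edgeR gave 14.3% higher and 17.4% lower at that p, and DESeq2 13.4% and 12.9%. Its level fell to 19.7 and 31.9 CPM in tCD115- cells, against 69.1 and 65.5 CPM in nCD115- cells, a change of -1.38 ± 0.20 (edgeR adjusted p = 0.013). Both tCD115- libraries were below both nCD115- libraries, and the call was lost without nCD115- replicate 1 (edgeR adjusted p = 0.108) or nCD115- replicate 2 (0.0533). At an adjusted p under 0.05 alone, *Ids*, *Ctss*, *Asah1* and *Ctsb* fell (background 6.49%) and *Ctsl* and *Ctsd* rose (background 3.19%). The median was -0.18, against 0.00 over all tested genes, and the libraries did not overlap for 21 lower members (background 30%) and 6 higher (28.3%).

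*Ctss* fell to 460 and 691 CPM in tCD115- cells, against 1148 and 930 CPM in nCD115- cells (-0.85 ± 0.19, edgeR adjusted p = 0.0354), and *Asah1* fell to 188 and 211 CPM in tCD115- cells, against 316 and 271 CPM in nCD115- cells (-0.56 ± 0.10, edgeR adjusted p = 0.0232). *Ctsd* had 619 and 606 CPM in tCD115- cells, against 487 and 488 CPM in nCD115- cells (0.33 ± 0.08, edgeR adjusted p = 0.0402). *Ctsl*, the gene of the endopeptidase cathepsin L, had 38.5 and 45.1 CPM in tCD115- cells, against 31.9 and 29.8 CPM in nCD115- cells (0.44 ± 0.11, edgeR adjusted p = 0.047). The libraries of the 2 groups did not overlap for any of these genes. The calls depended on the libraries kept, since *Ctss* passed in 2, *Asah1* in 3, *Ctsd* in 1 and *Ctsl* in 2 of the 8 fits that left out 1 library. Without tCD115- replicate 2, 4 members were called lower (background 6.04%), 20 fell (17.8%) and 5 rose (14%). Without nCD115- replicate 1 none fell (background 0.259%), without any library other than these and tCD115- replicate 1 a single member did (1.54% to 2.58%), and DESeq2 gave 11 that fell (10.8%). *Tfeb* (-0.33, edgeR adjusted p = 0.0623), *Lamp1* (-0.35, 0.065), *Cd68* (-0.60, 0.115) and *Psap* (-0.66, 0.0576) did not pass.

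In CD115+ cells, where neutrophil markers were low, the effect of the tumor was asked between tCD115+ and nCD115+ cells. No member was called at the 2-fold threshold by edgeR or DESeq2 (background 0.939% higher and 1.66% lower), and at an unadjusted p under 0.05 edgeR gave 6 members higher (background 17.2%) and 2 lower (background 12.1%). At an adjusted p under 0.05, *Ctsl*, *Gla* and *Ctsd* rose (background 6.09%) and *Ids* and *Arsb* fell (background 4.2%). DESeq2 passed 6 members, 4 higher (background 8.86%) and 2 lower (8.46%). The median was -0.03, against 0.02 over all tested genes, and the libraries did not overlap for 13 higher members (background 36.3%) and 15 lower (31.1%), so the list as a whole lay near the background.

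*Ctsl* had 72.2 and 62.0 CPM in tCD115+ cells, against 38.6 and 36.5 CPM in nCD115+ cells (0.84 ± 0.11, edgeR adjusted p = 0.01). *Gla*, the gene of alpha-galactosidase A, had 37.4 and 33.2 CPM in tCD115+ cells, against 25.3 and 21.4 CPM in nCD115+ cells (0.60 ± 0.12, edgeR adjusted p = 0.0257). *Ctsd* had 621 and 562 CPM in tCD115+ cells, against 439 and 449 CPM in nCD115+ cells (0.42 ± 0.08, edgeR adjusted p = 0.0227). All 3 were higher in both tCD115+ libraries than in both nCD115+ libraries. *Ids* fell to 48.5 and 49.7 CPM in tCD115+ cells, against 83.9 and 99.7 CPM in nCD115+ cells (-0.90 ± 0.20, edgeR adjusted p = 0.0336), and *Arsb* fell to 91.3 and 92.0 CPM in tCD115+ cells, against 126 and 119 CPM in nCD115+ cells (-0.42 ± 0.11, edgeR adjusted p = 0.0462). Thus *Ids* fell, and *Ctsd* and *Ctsl* rose, with the tumor in both subsets, in comparisons that share no library but share 1 estimate of the spread. *Ctsl* passed in 5, *Gla* in 3, *Ctsd* in 3, *Ids* in 2 and *Arsb* in 2 of the 8 fits that left out 1 library. Without either tCD115- library 7 members rose (background 12.4% and 13.6%) and 5 fell (background 11.7% and 10.7%), and without any of the other 6 libraries none fell (background 0.207% to 1.97%). None rose without tCD115+ replicate 1 or either nCD115+ library, and 1 rose without tCD115+ replicate 2 or nCD115- replicate 1. The exons of *Ctsl* share 1742 bases with the antisense gene *Gm47123*, and those of *Ctsd* share 670 with *Gm49369* on the same strand, so their reads cannot be told apart where the counting did not separate them.

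**Figure D4:**
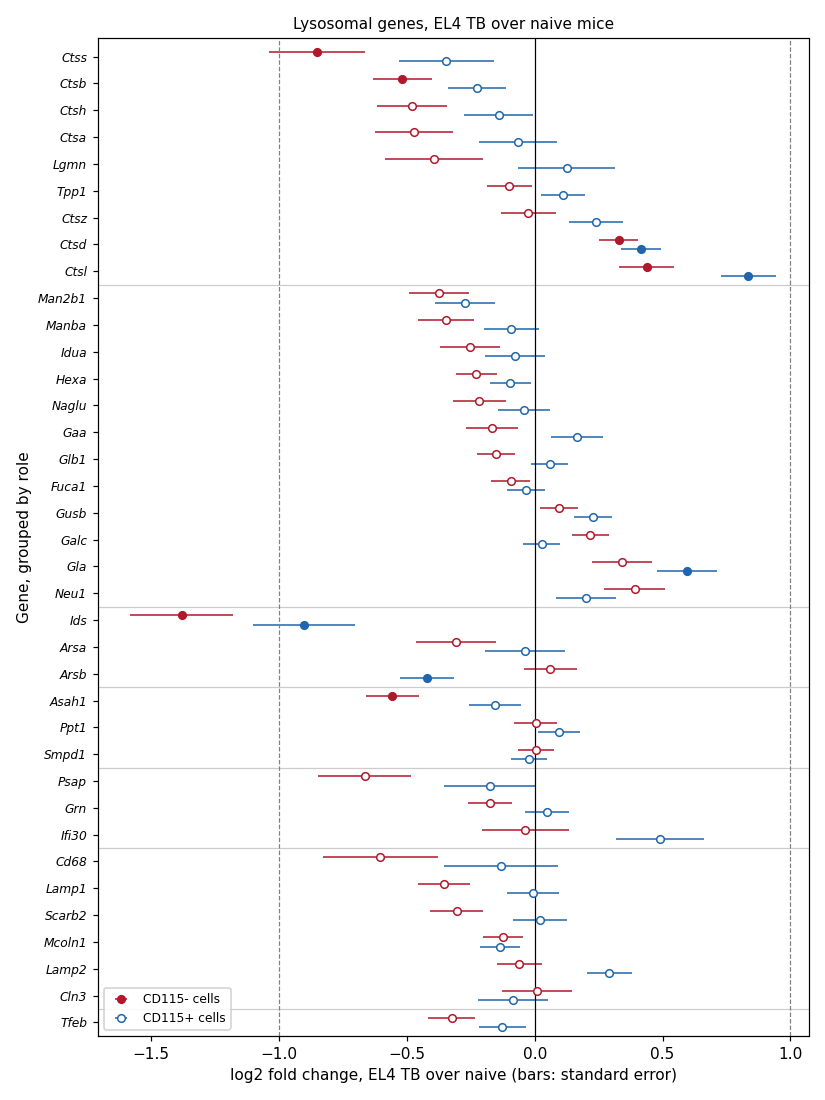
Log2 fold change of EL4 TB over naive mice for each of the 37 genes, grouped by role (proteases, glycosidases, sulfatases, lipid and thioester enzymes, *Psap*/*Grn*/*Ifi30*, membrane proteins, *Tfeb*), in CD115- cells (red) and CD115+ cells (blue), with standard errors; filled points have an adjusted p under 0.05. *Ids* lies farthest to the left in both subsets (-1.38 and -0.90) and *Ctsl* farthest to the right (0.44 and 0.84).

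Dendritic cell markers also differed with the tumor, and 1 of their 9, *Xcr1*, had no read in some libraries. Their sum was 126 and 103 CPM in tCD115- cells, against 363 and 269 CPM in nCD115- cells, and 173 and 127 CPM in tCD115+ cells, against 520 and 545 CPM in nCD115+ cells. Of the 8 tested, 7 were called lower in CD115- cells (background 2.43%) and 6 in CD115+ cells (1.66%). B cell markers, none of them at 0 in any library, summed to 13.6 and 9.16 CPM in tCD115- cells, against 28.1 and 24.3 CPM in nCD115- cells, and to 14.1 and 10.6 CPM in tCD115+ cells, against 27.5 and 26.6 CPM in nCD115+ cells. In each subset 3 of 7 were called lower (background 2.43% in CD115- and 1.66% in CD115+ cells). Of the T and NK cell markers 2 of 7 were called lower in tCD115+ than in nCD115+ cells (background 1.66%) and none passed the adjusted p in CD115- cells. Of the 12 neutrophil markers 3 were called higher in tCD115+ than in nCD115+ cells (background 0.939%) and 2 in tCD115- than in nCD115- cells (0.855%). Among the 12 monocyte markers 2 were called lower in CD115- cells (background 2.43%) and 1 in CD115+ cells (1.66%). Sums of the neutrophil and monocyte markers are given above. The 6 azurophil granule genes summed to 6588 and 3777 CPM in tCD115- cells, against 2116 and 2776 CPM in nCD115- cells. In tCD115+ cells they summed to 1582 and 1591 CPM, against 1105 and 756 CPM in nCD115+ cells. Of these genes 2 were called higher in CD115- cells (background 0.855%) and 1 in CD115+ cells (0.939%). The part of these marker differences in the values of *Ids*, *Ctss*, *Ctsl* and *Ctsd* was not tested.

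Across the 4 comparisons between groups, 6 members passed in none, namely *Man2b1*, *Idua*, *Smpd1*, *Ppt1*, *Cln3* and *Mcoln1*. *Smpd1* was the flattest of these, with CPM between 38.0 and 40.7 over all 8 libraries.

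Other lysosomal genes were read from lists that share no gene with the 37. Between tCD115- and tCD115+ cells, 13 of 27 further lumen genes fell and 5 rose at an adjusted p under 0.05 (median -0.44), against 19.9% and 17.7% of all tested genes, with *Scpep1*, a serine carboxypeptidase gene, called lower (-1.20), and *Gm2a*, the GM2 ganglioside activator gene, at -0.96. Of 20 further membrane genes 11 fell and 2 rose (median -0.32), and *Npc1*, which exports cholesterol, changed by -0.74. The 18 genes of the proton pump that acidifies the lysosome, the V-ATPase, did not share this direction gene by gene, with 4 higher, 2 lower and a median of 0.01. Libraries did not overlap for 7 lower (background 40.1%) and 4 higher (31.4%). Their summed level was lower in tCD115- cells, with 3068 and 2963 CPM, against 3443 and 3448 CPM in tCD115+ cells. Of 15 genes of the MiT/TFE factors and of mTORC1 signalling on the lysosome, 4 fell and 3 rose (median -0.12), shares of 26.7% and 20% that lay near the background. Those that fell included *Mitf* (-0.87), *Flcn* (-0.61) and *Tfec* (-0.42), and the 3 that rose changed by at most 0.42. In naive mice the counts were 2 lower and 1 higher for the lumen genes, 1 lower and 1 higher for the membrane genes and 2 higher for the V-ATPase (background 3.23% lower and 11.8% higher).

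A few partners of the lysosomal enzymes differed far more than the enzymes. *Cd63*, which encodes a tetraspanin of lysosomes and of neutrophil azurophil granules, had 299 and 178 CPM in tCD115- cells, against 2.61 and 2.56 CPM in tCD115+ cells, and 139 and 179 CPM in nCD115- cells, against 2.71 and 2.61 CPM in nCD115+ cells (log2 fold changes 6.53 ± 0.29 and 5.90 ± 0.28, edgeR adjusted p = 1.66e-05 and 2.41e-05). *Igf2r*, which encodes a mannose 6-phosphate receptor that carries new enzymes to the lysosome, had 108 and 101 CPM in tCD115- cells, against 1.26 and 1.05 CPM in tCD115+ cells, and 57.4 and 94.6 CPM in nCD115- cells, against 1.03 and 1.18 CPM in nCD115+ cells (6.49 ± 0.27 and 6.10 ± 0.27, edgeR adjusted p = 1.66e-05 and 2.35e-05). Both were called higher in CD115- cells of both kinds of mice. *Gga2*, an adaptor of that receptor, rose by 0.94 in EL4 TB mice and 0.99 in naive mice, while the 12 sorting genes as a list had a median of -0.04 in EL4 TB mice and 0.02 in naive mice.

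The inhibitors of cysteine cathepsins split in the same comparison. Of 9 genes, 7 were called higher in tCD115- cells (background 8.36%) and 2 fell (19.9%), and several of those that rose are near-identical stefin A copies with few reads in CD115+ cells, whose reads the counting could split. *Cst3*, the gene of cystatin C, fell to 439 and 493 CPM in tCD115- cells, against 739 and 734 CPM in tCD115+ cells (-0.66 ± 0.09, edgeR adjusted p = 0.00157), and *Cstb* by 0.72. *Serpinb6a*, whose product is best known as an inhibitor of the serine protease cathepsin G, had 30.6 and 18.6 CPM in tCD115- cells, against 7.61 and 6.48 CPM in tCD115+ cells (1.80 ± 0.22, edgeR adjusted p = 0.00106), and *Cst7*, the gene of cystatin F, rose by 1.51. In naive mice 4 of the 9 were called higher (background 5.73%) and *Cst3* fell (-0.45, edgeR adjusted p = 0.0143). The 6 azurophil granule genes summed to 6588 and 3777 CPM in tCD115- cells, against 1582 and 1591 CPM in tCD115+ cells, and their part in the values of *Cd63* and the inhibitors was not tested.

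**Figure D5:**
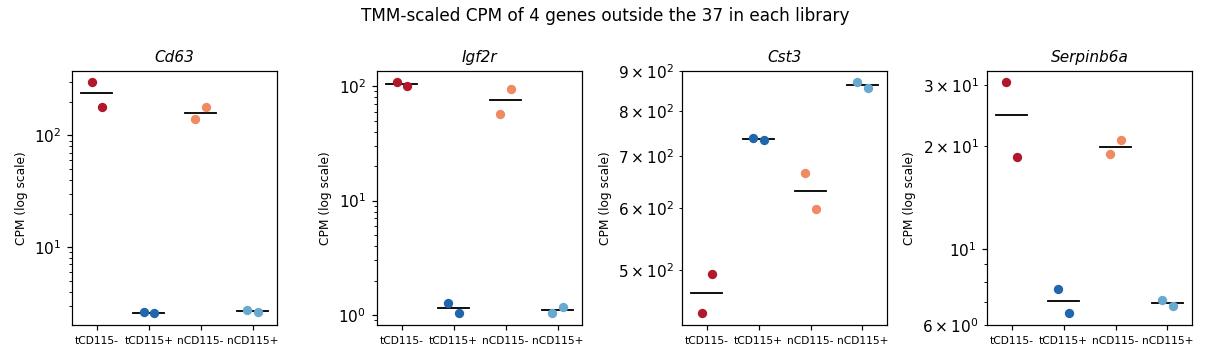
TMM-scaled CPM (log axes, each with its own range) of *Cd63*, *Igf2r*, *Cst3* and *Serpinb6a* in each library (points) with the group mean (line). *Cd63* and *Igf2r* were below 3 CPM in every CD115+ library and above 50 CPM in every CD115- library, and *Cst3* was lower in the CD115- libraries.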

How the data were processed

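Raw read counts and FPKM values, both per gene and library, were taken from a single table that the authors deposited. Counts are not normalized, and the authors scaled FPKM for gene length and depth. HISAT2 2.0.5, StringTie 1.3.3b, Bowtie2, DESeq2 and mouse build mm10 are named in the submitters' processing notes, with no role for any of them, and the strand setting was not given in the sources used here. Not used were 12 other columns with values of samples or groups and 24 columns of the authors' own comparisons, which hold fold changes, means, standard errors, statistics and p-values, raw and adjusted.

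Groups were taken from the sample labels. The counts were analysed in R 4.3.3 with edgeR 4.0.16 and limma 3.58.1. Genes with low counts were removed by filterByExpr, which left 13211 of 16160, and libraries were scaled by TMM. A robust quasi-likelihood model with 1 mean per group over all 8 libraries (4 residual degrees of freedom) gave 5 contrasts, adjusted by Benjamini-Hochberg over all tested genes, and the threshold of an adjusted p under 0.05 with at least a 2-fold change follows the study. With 2 libraries per group an exact permutation test of a single value cannot give a p below 0.333, so none was used. FPKM served only to order levels between genes. Library totals were 69692398 to 95353798 counts, and no member had fewer than 1549 reads in a library. The 2 libraries of a group differed by 34.1 to 215 times the sampling noise (chi-square per degree of freedom), so none was a repeated deposit. Alternatives were RLE size factors, library totals, a minimum of 10 counts in every library, no filter, the replicate number as a block, only the 4 libraries compared, DESeq2 1.42.0 and leaving out each library. The edgeR step was tested on simulated counts for the comparison of the EL4 TB subsets, with the same spread for every gene. There 88% of genes with a true log2 fold change of 1 passed the adjusted p, and 24% of those with 0.585. Smaller changes can therefore be missed. Figures were drawn with Python 3.11.15 and matplotlib 3.10.9.

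The 37 genes and the other lists were chosen with earlier results of these data known. Library values are printed for members called in any comparison, for up to 3 with the largest change in each direction past the adjusted p, and for *Tfeb*, *Lamp1*, *Ctsd*, *Cd68* and *Ctss*, and of other lists at most 4 genes past the adjusted p with a mean of at least 5 CPM are named. Values printed for *Psap*, whose share of the reads is large, were added after the data were seen. Promoter windows and gene records came from RefSeq (GRCm38.p6), and exon overlaps from GENCODE M21, in which 14 members share exonic bases with another gene, 11 of them only with genes on the opposite strand.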

Additional observations from a re-analysis of the deposited data

Results flagged for a closer look

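*Grn*, the progranulin gene, was singled out because its difference between EL4 TB and naive mice had opposite signs in the 2 subsets, with every library on its side. Both tCD115- libraries (689 and 787 CPM) lay below both nCD115- libraries (845 and 823 CPM), a log2 fold change of -0.18, while both tCD115+ libraries (953 and 996 CPM) lay above both nCD115+ libraries (951 and 935 CPM), a log2 fold change of 0.05. Neither change passed (edgeR adjusted p = 0.203 and 0.76). Their difference, tested as the interaction, was -0.22 and did not pass either (edgeR adjusted p = 0.841).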

How the results depend on the processing

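With library totals in place of TMM, 1 member was called higher (background 7.65%) and 7 lower (6.36%) between the subsets of EL4 TB mice. With that scaling 8 fell between the subsets of naive mice (background 7.7%) and none rose between tCD115- and nCD115- cells (2.36%). It moved the median of all tested genes between the EL4 TB subsets to -0.20 and the members' median to -0.54. The share of higher calls among all genes moved to 54.6%, against 67.8%. With the 4 libraries compared alone, 12 fell in EL4 TB mice (background 7.14%) and 16 in naive mice (11.7%). Between the kinds of mice none was called or passed the adjusted p in CD115- cells, where 0.117% of all tested genes rose and 0.195% fell. In CD115+ cells 7 rose and 6 fell (background 15% each). DESeq2 gave 8 that fell between the naive subsets (background 7.31%), and 5 that rose (9.75%) and 11 that fell (10.8%) between tCD115- and nCD115- cells. With the replicate number as a block, 1 member was called higher in EL4 TB mice (background 8.04%), 1 fell in naive mice (2.45%) and 1 fell between tCD115+ and nCD115+ cells (3.47%). Same-numbered libraries correlated between -0.099 and 0.0778 in their deviations, so no pairing by number was seen. Values near 0 cannot exclude that same-numbered libraries came from the same mice. The cause of these shifts was not tested.

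Leaving out 1 library at a time, called members between the EL4 TB subsets ranged from 1 to 2 higher and from 0 to 7 lower, and from 13 to 25 fell at any fold; the lowest counts were those without tCD115+ replicate 1 (14) and tCD115+ replicate 2 (13). Between the naive subsets 0 to 16 fell, with 16 without either tCD115- library and 0 without any other. Between tCD115- and nCD115- cells 0 to 4 were called lower, 0 to 5 rose and 0 to 20 fell. Between tCD115+ and nCD115+ cells 0 to 7 rose and 0 to 5 fell. In the interaction 0 to 1 passed higher and 0 to 8 lower. An arm left with 1 library is assumed to vary like the other groups. The share of all tested genes that passed also moved between these fits, so these counts alone do not set the members apart from other genes.

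*Ctsd* between the EL4 TB subsets, which did not pass at 0.05, changed sign with library totals (-0.09) and without tCD115+ replicate 2 (-0.02), in a range of -0.02 to 0.12 over the fits that left out 1 library. Of the 360 refits of the 24 values of single members named by the rule, 274 kept their direction and their side of an adjusted p of 0.05, 84 kept only the direction and these 2 turned. The 5 values called at 2-fold as well kept that call in 66 of 75 refits, and of the 9 losses 6 were by the fold alone, 4 of them for *Neu1*. With 2 libraries per group, 4 residual degrees of freedom and at least 1549 reads per member in each library, the number of libraries limits the precision more than the depth.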
